A study of Saccharomyces cerevisiae BY4741 with 238 samples.

Results

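The genes described here are 33 chaperones, co-chaperones and heat shock genes of budding yeast that are linked to the heat shock factor Hsf1. They were taken as a list of names, and all 33 were among the 5015 of 6717 features whose mean level over all libraries was at least 10. By compartment, 25 act in the cytosol, 7 in the mitochondrion and 1 in the endoplasmic reticulum. By role, they comprise 4 cytosolic Hsp70s, 3 Hsp70 exchange factors, 3 J-proteins, 2 Hsp90s, 8 Hsp90 co-chaperones, 3 members of the disaggregase and small heat shock class, 2 aggregate sorting factors, 4 members of the mitochondrial Hsp70 system, 3 of the mitochondrial chaperonin and disaggregase class, and KAR2.

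Transcripts were measured in 238 wells of strain BY4741, a laboratory haploid auxotrophic for histidine, leucine, methionine and uracil, grown in rich YPD medium on robot-made grids of drug pairs. The drugs were cycloheximide (a blocker of translation elongation), LiCl (a toxic salt), myriocin (an inhibitor of serine palmitoyltransferase, the first enzyme of sphingolipid synthesis) and rapamycin (an inhibitor of TOR complex 1). Cycloheximide, myriocin and rapamycin came from DMSO stocks and LiCl was dissolved in the medium. Wells were harvested after 3 rounds of growth and re-inoculation, and each library is 1 well. Each grid of a drug pair is called an experiment.

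There were 11 drug-free wells. The single-drug wells that grew at 0.35 to 0.66 of the drug-free rate, called matched here, were 10 with cycloheximide (0.0522 to 0.0764 µg/ml), 10 with LiCl (9235 to 15726 µg/ml), 11 with myriocin (0.349 to 0.510 µg/ml) and 11 with rapamycin (0.00396 to 0.00662 µg/ml). Milder single-drug wells numbered 13, 18, 9 and 19 in the same order, and 5 myriocin wells (0.579 to 0.962 µg/ml) were near arrest, at a relative growth of 0.0358 to 0.331. The mixtures, all at a relative growth of 0.361 to 0.658, comprised 22 wells of cycloheximide with LiCl, 20 of cycloheximide with myriocin, 19 of cycloheximide with rapamycin, 26 of LiCl with myriocin, 18 of LiCl with rapamycin and 16 of myriocin with rapamycin. Grids were seeded from an overnight culture and nothing in the labels says that wells of a group came from separate ones, so p-values measure the spread between wells, which may be technical.

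The estimated depth of a library had a median of 568842 reads (lowest 64843, highest 2017612). In 8 shallow libraries it was under 142211. The deleted marker genes LEU2, MET17 and URA3 each had a mean level of 0.0791, while HIS3 had 16.5. Within each experiment the wells were divided into 2 growth-reference sets, with a lower or a higher ratio of absolute to relative growth, whose meaning the labels do not give. All mixtures lay in the higher set. Levels are the authors' normalised signal, and changes are differences in log2(level + 1) with their standard errors. A gene is said to have risen or fallen where the change was at least 1.5-fold with a Benjamini-Hochberg adjusted p under 0.05 over all 5015 genes in limma.

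Hsf1 is the factor that drives chaperone transcription in yeast, both basally and when unfolded proteins accumulate. In the current view, free Hsp70 and its J-protein partner Sis1 hold Hsf1 inactive, and unfolded or newly made proteins draw them away. Hsp70 and Hsp90 fold and hold client proteins, the disaggregase Hsp104 pulls proteins out of aggregates, and small heat shock proteins keep unfolded proteins soluble. Some of these genes, HSP26 and HSP104 among them, are also targets of the general stress factors Msn2 and Msn4, and KAR2 is a target of the unfolded protein response. Hsf1 binds heat shock elements, inverted repeats of the unit GAA.

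In the 500 bases before the start codon, on either strand, 14 of the 33 genes (42.4%) held at least 3 alternating units without a mismatch (GAANNTTCNNGAA or TTCNNGAANNTTC), against 89 of 6000 promoters of the genome (1.48%). The shorter pair of units (GAANNTTC or TTCNNGAA, letters that also lie inside the longer run) was in 26 of 33, against 35.2% of all promoters. The stress response element (AGGGG or its complement CCCCT) was in 13 of 33 (39.4%), against 34.1%. At least 2 of these elements were in 9 of 33 (27.3%), against 8.13%. The runs below belong to genes whose levels are followed through the drugs. Capitals mark the run of units, each sequence reads towards the gene, and both sequence and positions are from the RefSeq assembly R64. The SIS1 window (chrXIV:619872-619924, minus strand) holds 5 units, and the windows of SSA1 (chrI:141763-141810, minus), HSP42 (chrIV:806363-806410, plus), BTN2 (chrVII:772095-772142, plus), HSP78 (chrIV:974458-974505, minus) and KAR2 (chrX:381107-381154, plus) hold 4. Those of SSA2 (chrXII:97691-97733, minus) and AHA1 (chrIV:892559-892601, plus) hold 3.
SIS1: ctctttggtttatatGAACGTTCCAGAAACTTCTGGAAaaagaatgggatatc
SSA1: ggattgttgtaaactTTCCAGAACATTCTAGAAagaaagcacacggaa
HSP42: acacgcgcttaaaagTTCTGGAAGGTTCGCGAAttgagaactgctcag
BTN2: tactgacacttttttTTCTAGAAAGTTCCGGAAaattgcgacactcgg
HSP78: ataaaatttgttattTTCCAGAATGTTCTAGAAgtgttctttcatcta
KAR2: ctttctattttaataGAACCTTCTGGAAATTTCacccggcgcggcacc
SSA2: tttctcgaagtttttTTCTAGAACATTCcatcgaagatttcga
AHA1: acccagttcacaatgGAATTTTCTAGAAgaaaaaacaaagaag

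Rapamycin raised more of these genes than any other single drug at matched growth. Against no drug, 12 of 33 rose and 0 fell under rapamycin, where 2.93% of all tested genes rose and 2.41% fell. The median change of the 33 was 0.46, against -0.05 for all genes. Cycloheximide raised 5 and lowered 0 (all genes 1.46% and 1.02%), with a median of 0.28. LiCl raised 1 and lowered 0 (all genes 4.41% and 4.13%), with a median of 0.12. Myriocin raised 0 and lowered 1 (all genes 3.53% and 3.69%), with a median of 0.00. The myriocin result depends on the fit: with final OD600 as a covariate 4 rose (SSA4, YDJ1, CNS1 and HSP26) and 0 fell. The count of all genes in that fit is not given here. An unadjusted limma p under 0.05 with myriocin was reached by 11 of the 33, beside 1422 of all 5015 genes. The LiCl and myriocin shares of the members that rose or fell are below the shares of all genes. The 4 comparisons share the drug-free wells and so are not independent.

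The cytosolic Hsp70s are the general folding chaperones of the cytosol. SSA1 and SSA2 are made at all times and SSA3 and SSA4 are stress-induced. SSA3 had a level of 18.2 to 31.6 (median 22.6) in the drug-free wells. It had 33.9 to 70.8 (median 48.5) with cycloheximide, 24.6 to 68.3 (42.6) with LiCl, 25.2 to 45.2 (35.6) with myriocin and 29.3 to 70.004 (40.5) with rapamycin. Every cycloheximide well lay above every drug-free well, and the other 3 drugs overlapped with no drug. The change was 0.94 ± 0.16 with cycloheximide (adjusted p = 0.00013), 0.88 ± 0.16 with LiCl (3.5e-05) and 1.08 ± 0.16 with rapamycin (1.1e-06). With myriocin it was 0.46 ± 0.16, short of 1.5-fold.

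SSA4 had 55.7 to 153 (median 74.7) without drug, 72.6 to 189.3 (143) with cycloheximide, 37.6 to 257 (145) with LiCl, 81.9 to 221 (136) with myriocin and 120 to 283 (180.7) with rapamycin. 9 of the 11 rapamycin wells were above the highest drug-free well. SSA4 rose by 1.00 ± 0.18 with rapamycin (adjusted p = 9.7e-05) and by 0.65 ± 0.19 with cycloheximide (0.034). The cycloheximide call was lost in 7 of 30 alternatives, among them the fit without the 8 shallow libraries. SSA2 went from a median of 628 (327 to 764) without drug to 1105 (820 to 1216) with rapamycin, and the groups did not overlap. Its rise of 0.62 ± 0.12 (adjusted p = 9.7e-05) became 0.57 when drug-free well 4 was left out. SSA1 likewise did not overlap, at 631 to 1057 without drug and 1202 to 1581 with rapamycin, but its change of 0.48 ± 0.08 was under 1.5-fold. SSA1 with SSA2, and SSA3 with SSA4, are close paralogs. How reads matching both were counted is not given in the sources used here, so the split within each pair is uncertain, as it is for HSP82 with HSC82 and SSC1 with ECM10.

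Exchange factors reload Hsp70 with ATP. None of SSE1, SSE2 and FES1 passed the threshold under any of the 4 drugs. SSE1, the main cytosolic Hsp110, was 423 to 583 without drug and 599 to 920 with rapamycin. Those ranges did not overlap, yet the change was 0.47 ± 0.07. SSE2 had 0.48 ± 0.13 with cycloheximide and 0.46 ± 0.12 with rapamycin. FES1 had 0.42 ± 0.16 with rapamycin, with an adjusted p of 0.067.

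J-proteins deliver clients to Hsp70 and start its ATP hydrolysis. YDJ1, the general J-protein of the cytosol, had a median of 122 (83.4 to 140) without drug and 180 (136 to 223) with rapamycin, where it rose by 0.70 ± 0.10 (adjusted p = 1.3e-06). It also rose with cycloheximide (0.60 ± 0.11, 0.00018), a call lost in 6 of 30 alternatives. With myriocin YDJ1 did not pass, though 7 of the 11 wells were above every drug-free well. Its plain differences within experiments were 0.74 (cycloheximide-myriocin grid), 0.59 (LiCl-myriocin grid) and 0.59 (myriocin-rapamycin grid). SIS1, which also restrains Hsf1, had 211 to 289 (median 257) without drug and 336 to 549 (424) with rapamycin, with no overlap. It rose by 0.70 ± 0.10 (adjusted p = 3.4e-07). APJ1, the remaining J-protein of this class, was the single gene that fell with myriocin (-0.71 ± 0.22, adjusted p = 0.020). Its range was 12.96 to 81.4 (median 20.4) without drug and 13.5 to 28.4 (20.8) with myriocin, so the medians were nearly equal. Drug-free well 4, of the LiCl-myriocin experiment, held the highest drug-free level of APJ1 (81.4), and of FES1 (198.7) and BTN2 (331). Without that well the APJ1 change was -0.49 with an adjusted p of 0.14. Within experiments it was -1.38 in the LiCl-myriocin grid, -0.16 in the cycloheximide-myriocin grid and 0.11 in the myriocin-rapamycin grid.

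**Figure D1:**
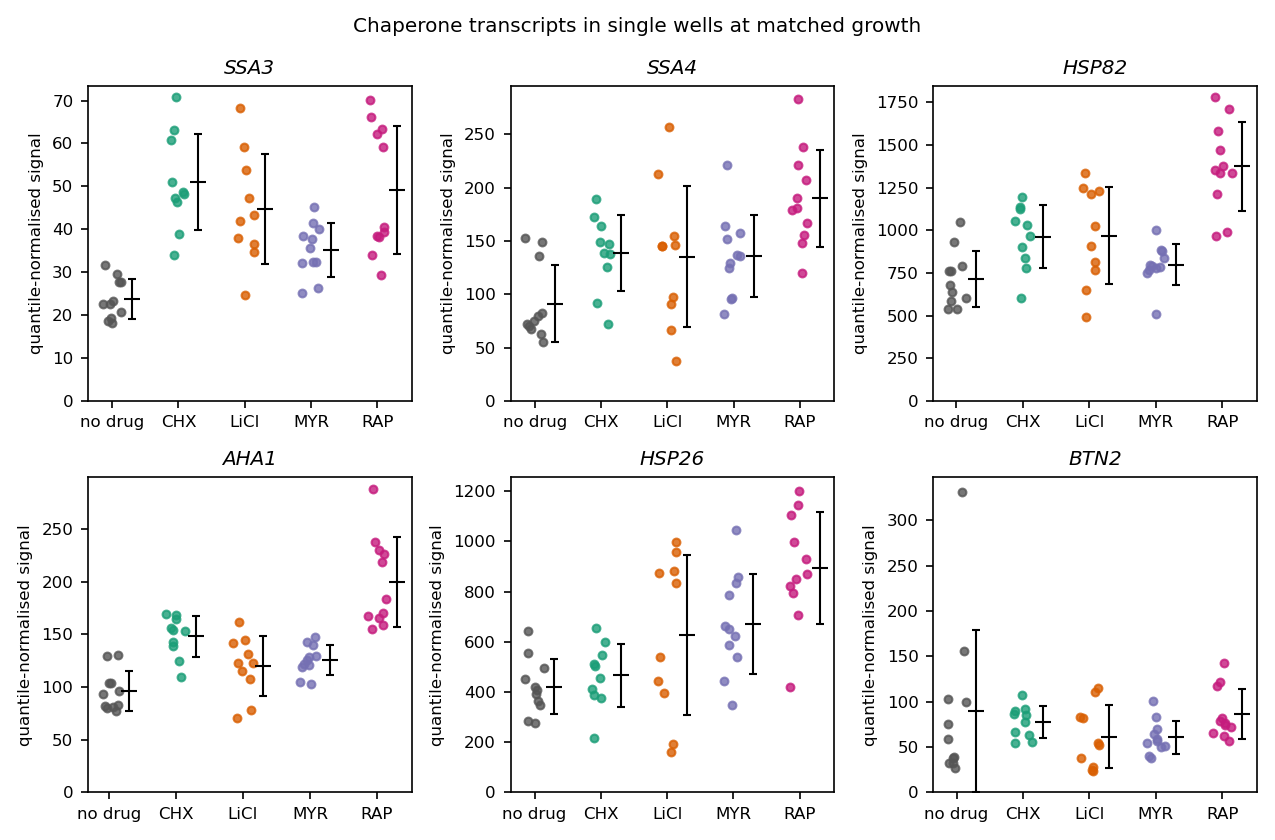
Level (normalised signal, linear axis from 0) of 6 chaperone genes in each drug-free well and each matched well of cycloheximide (CHX), LiCl, myriocin (MYR) and rapamycin (RAP); a point is a well, and the bar is the mean ± SD (n = 11, 10, 10, 11 and 11). SSA3 was higher in all 10 cycloheximide wells than in any drug-free well, AHA1 in all 11 rapamycin wells, and 1 drug-free well stood at 331 for BTN2.

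Hsp90 matures kinases and receptors together with its co-chaperones. HSP82, the stress-inducible Hsp90, had a median of 681 (537 to 1048) without drug, 1000 (604 to 1196) with cycloheximide, 967 (494 to 1334) with LiCl, 788 (507 to 1004) with myriocin and 1354 (964 to 1782) with rapamycin. It rose with rapamycin by 0.71 ± 0.12 (adjusted p = 1.8e-05). HSC82, the constitutive copy, had changes of 0.38 ± 0.10, 0.35 ± 0.09, -0.04 ± 0.10 and 0.50 ± 0.09 in that drug order, none past the fold. AHA1 activates the Hsp90 ATPase. Its level was 77.3 to 130 (median 93.3) without drug, 110 to 169 (154) with cycloheximide and 155 to 288 (183.9) with rapamycin, the last with no overlap. It rose by 0.67 ± 0.11 with cycloheximide (adjusted p = 8.9e-05) and by 0.89 ± 0.11 with rapamycin (2.9e-08), and both calls held under every alternative run. STI1, which hands clients from Hsp70 to Hsp90, rose with rapamycin from a median of 149 (120 to 231) to 278 (221 to 400), by 0.84 ± 0.11 (adjusted p = 2.1e-07). The other co-chaperones HCH1, CNS1, CPR6, CPR7, SBA1 and CDC37 passed under no drug. CDC37, the co-chaperone for kinases, had -0.12, -0.28, -0.06 and -0.25 in the same order. CNS1 with myriocin had 0.68 ± 0.25 (adjusted p = 0.054).

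In the disaggregase and small heat shock class, HSP42 and HSP26 rose with rapamycin. HSP42, the small heat shock protein that gathers aggregates in unstressed cells, went from 253 to 477 (median 405) to 427 to 935 (634), by 0.67 ± 0.13 (adjusted p = 0.00015). HSP26 went from 278 to 642 (median 408) to 420 to 1202 (869), by 0.94 ± 0.18 (0.00021). With myriocin HSP26 did not pass, though 6 of the 11 wells were above every drug-free well. Its plain differences within experiments were 1.00 (cycloheximide-myriocin grid), 0.88 (LiCl-myriocin grid) and -0.05 (myriocin-rapamycin grid). HSP104 had 0.03, 0.11, -0.32 and 0.19 with cycloheximide, LiCl, myriocin and rapamycin. Of the aggregate sorting factors, CUR1 rose with rapamycin from a median of 24.5 (16.9 to 44.7) to 39.3 (29.3 to 74.1), by 0.67 ± 0.19 (adjusted p = 0.011), and with cycloheximide by 0.64 ± 0.19 (0.041). The cycloheximide call was lost in 14 of 30 alternatives. BTN2, which sorts misfolded proteins to deposits, had 0.47 ± 0.29, -0.37 ± 0.28, -0.73 ± 0.28 and 0.23 ± 0.27, none past the threshold, with a drug-free range of 26.6 to 331.

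Of the 7 mitochondrial genes, MDJ1 alone rose. The J-protein of the matrix Hsp70, it went with rapamycin from a median of 80.2 (56.7 to 95.7) to 124 (54.9 to 170), by 0.60 ± 0.14 (adjusted p = 0.0017), and the call was lost in 7 of 31 alternatives. With myriocin its groups did not overlap (99.6 to 145 against 56.7 to 95.7), yet the fitted change was 0.24 ± 0.14. The plain differences within experiments were 0.42 (cycloheximide-myriocin grid), 0.51 (LiCl-myriocin grid) and 0.31 (myriocin-rapamycin grid), and the fit also holds a term for the reference set. The matrix Hsp70 SSC1 had -0.41 ± 0.09 with LiCl, and its exchange factor MGE1 had -0.33 ± 0.08 with rapamycin. KAR2, the Hsp70 of the endoplasmic reticulum, had 0.19, -0.19, -0.20 and 0.13 in the 4 drugs. The rapamycin rises were present in each of the 3 experiments that held matched wells: within experiments, the changes of the 12 genes ran from 0.43 (YDJ1, cycloheximide-rapamycin grid) to 1.30 (AHA1, myriocin-rapamycin grid). The myriocin-rapamycin grid had 1 drug-free well.

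Compared directly at matched growth, myriocin and rapamycin gave the most calls among the 6 pairs of drugs. With myriocin against rapamycin, 12 of 33 were lower and 2 higher (all genes 5.18% and 4.87%). The lower genes were APJ1 (-1.03 ± 0.23), BTN2 (-0.96 ± 0.30), HSP78, the matrix disaggregase (-0.94 ± 0.15), CUR1 (-0.92 ± 0.20), HSP42 (-0.90 ± 0.14), STI1 (-0.81 ± 0.12), SSA2 (-0.75 ± 0.12), SSA4 (-0.72 ± 0.20), SIS1 (-0.70 ± 0.10), HSP82 (-0.67 ± 0.13), HSP26 (-0.62 ± 0.20) and SSA3 (-0.62 ± 0.17). The higher genes were CNS1 (0.89 ± 0.26) and ECM10 (0.81 ± 0.30), both with low levels. ECM10, a minor matrix Hsp70, was under 10 in 74 of 238 libraries and lost this call in 5 of 9 alternatives. HSP26 and SSA3 each lost theirs in 3 of 9, and BTN2 and SSA4 in 2.

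LiCl against rapamycin gave 4 lower and 1 higher (all genes 5.08% and 4.93%). CUR1 (-0.77 ± 0.19), HSP26 (-0.77 ± 0.19), AHA1 (-0.76 ± 0.11) and SSA4 (-0.69 ± 0.19) were lower, and ECM10 was higher (1.30 ± 0.29). This comparison gave 9 calls instead of 5 without the shallow libraries. Cycloheximide against rapamycin gave 0 higher and 1 lower (all genes 2.79% and 2.33%), HSP26 at -0.78 ± 0.21 (adjusted p = 0.011). HSP26 was 217 to 656 (median 479) with cycloheximide. Cycloheximide against myriocin gave 4 higher and 0 lower (all genes 2.09% and 1.48%): BTN2 (1.20 ± 0.36), APJ1 (0.99 ± 0.27), CUR1 (0.89 ± 0.24) and HSP78 (0.66 ± 0.18). All 4 calls were lost without the term for the experiment. The cycloheximide-myriocin grid alone held matched wells of both drugs, 1 of each. There all 4 genes were lower with cycloheximide, the reverse of the fitted changes. In log2 the levels were 5.82 against 6.66 (BTN2), 4.42 against 4.44 (APJ1), 4.94 against 5.17 (CUR1) and 7.69 against 8.05 (HSP78). The fitted changes thus rest on wells of different grids, joined through the experiment terms. Cycloheximide against LiCl gave CUR1 alone (0.74 ± 0.23, adjusted p = 0.032), with 2.57% of all genes higher and 2.29% lower. LiCl against myriocin gave APJ1 (0.84 ± 0.24) and HSP42 (0.60 ± 0.14), with 6.48% of all genes higher and 6.04% lower. The HSP42 call was lost in 4 of 9 alternatives, and that of APJ1 without the experiment term (0.35).

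Each drug also had a series of milder wells in 1 experiment, and a slope on growth inhibition was fitted there, expressed as the change reached where growth is 0.5 of the drug-free rate. With cycloheximide (22 wells) SSA3 rose by 1.21 ± 0.22 (adjusted p = 0.00030) and no other member passed (all genes 2.57% higher and 2.75% lower). AHA1 had 0.50 ± 0.10 and HCH1, its smaller relative, 0.52 ± 0.14. With LiCl (26 wells) SSA3 rose by 0.78 ± 0.17 (adjusted p = 0.0015), with 2.65% of all genes higher and 4.09% lower. The SSA3 call was lost in the lower set alone with cycloheximide and in the higher set alone with LiCl. SSC1 had -0.55 ± 0.10 and HSP42 0.55 ± 0.12.

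With myriocin (22 wells, down to near arrest) 4 rose and 1 fell, where 7.98% of all genes rose and 8.04% fell. CNS1, an essential co-chaperone that binds Hsp70 and Hsp90, rose by 0.95 ± 0.22, YDJ1 by 0.83 ± 0.09, CPR7, an Hsp90-bound prolyl isomerase, by 0.66 ± 0.17, and SSA3 by 0.63 ± 0.12. APJ1 changed by -1.19 ± 0.21. When the near-arrest wells were left out, the calls of CNS1, YDJ1, CPR7 and SSA3 were lost. APJ1 kept its call there, and also when the drug-free wells were left out (-1.09), but not with final OD600 in the fit (-0.78, adjusted p = 0.086) or in the higher set alone. The SSA3 call was lost in 6 of 12 alternatives and that of CPR7 in 4.

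With rapamycin (25 wells) 6 rose and 0 fell, against 3.39% and 2.65% of all genes. They were CUR1 (1.10 ± 0.17), AHA1 (0.99 ± 0.09, adjusted p = 6.0e-11), SSA2 (0.69 ± 0.04, 1.5e-14), STI1 (0.66 ± 0.08), SIS1 (0.63 ± 0.07) and SSA3 (0.61 ± 0.15). The count depended on the reference set, at 16 in the lower set alone, 4 in the higher set alone, and 15 with final OD600 as a covariate. The counts of all genes in those fits are not given here. AHA1 had slopes of 1.11 and 0.86 and SSA2 of 0.72 and 0.66 in the lower and the higher set, with adjusted p of 0.70 and 0.87 for the difference. The slopes differed between the sets for 4 members. From the lower to the higher set, BTN2 went from 1.17 to -1.07 (difference -2.25 ± 0.40, adjusted p = 0.0078), APJ1 from 1.03 to -0.58 (-1.62 ± 0.29, 0.0078), SSA4 from 0.82 to -0.52 (-1.34 ± 0.25, 0.0086) and FES1, the nucleotide exchange factor that frees clients from Hsp70, from 0.80 to -0.24 (-1.04 ± 0.24, 0.048). Over all genes 13 differed so. Within the higher set final OD600 fell as inhibition rose, so inhibition and density cannot be told apart in its slopes. The higher set of this gradient held no drug-free well. In the LiCl gradient the same test found FES1 (0.44 against -1.20) and BTN2 (0.42 against -1.86), among 5 genes in all.

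**Figure D2:**
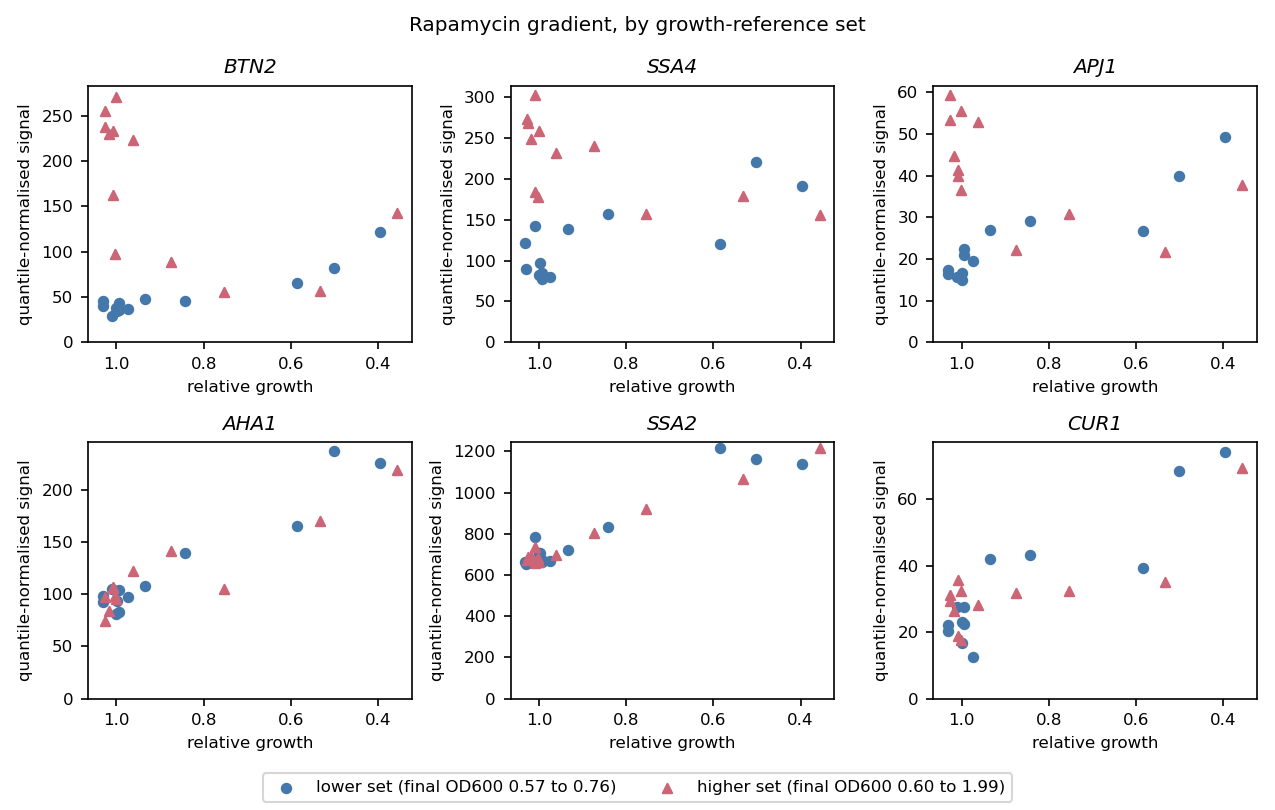
Level (normalised signal, linear axis from 0) of 6 chaperone genes against relative growth (axis reversed, so inhibition increases to the right) in the drug-free and rapamycin wells of the myriocin-rapamycin experiment, by growth-reference set; a point is a well. AHA1, SSA2 and CUR1 had positive slopes on inhibition in both sets, while BTN2, SSA4 and APJ1 were already high in the fast-growing wells of the higher set, which had the highest final OD600.

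The fast-growing rapamycin wells allow the sets to be set side by side without growth inhibition. Among wells with a relative growth of at least 0.9, 8 in the higher set had a final OD600 of 1.32 to 1.99 and 8 in the lower set had 0.570 to 0.759. Set and density cannot be told apart here. BTN2 was 97.9 to 270 (median 231) in the dense wells and 28.7 to 48.3 (38.8) in the others, with no overlap, a difference of 2.37 ± 0.13 (adjusted p = 2.7e-13). APJ1 was 36.6 to 59.3 against 14.9 to 26.9 (1.28 ± 0.13), SSA4 was 178.3 to 302 against 77.1 to 142 (1.24 ± 0.09), and FES1 was 79.8 to 142 against 52.05 to 63.9 (0.98 ± 0.09). HSP26 was 689 to 1057 against 425 to 930 (0.67 ± 0.08). These 5 were higher and 0 lower, where 2.31% of all genes were higher and 0.658% lower. HSP82 had 0.54 ± 0.07, under the fold. Among drug-free wells, BTN2 was 39.3 to 155 in the 3 dense ones (final OD600 1.38 to 1.44) and 26.6 to 331 in the 8 others, and SSA4 was 74.7 to 153 and 55.7 to 149, so those ranges overlapped.

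**Figure D3:**
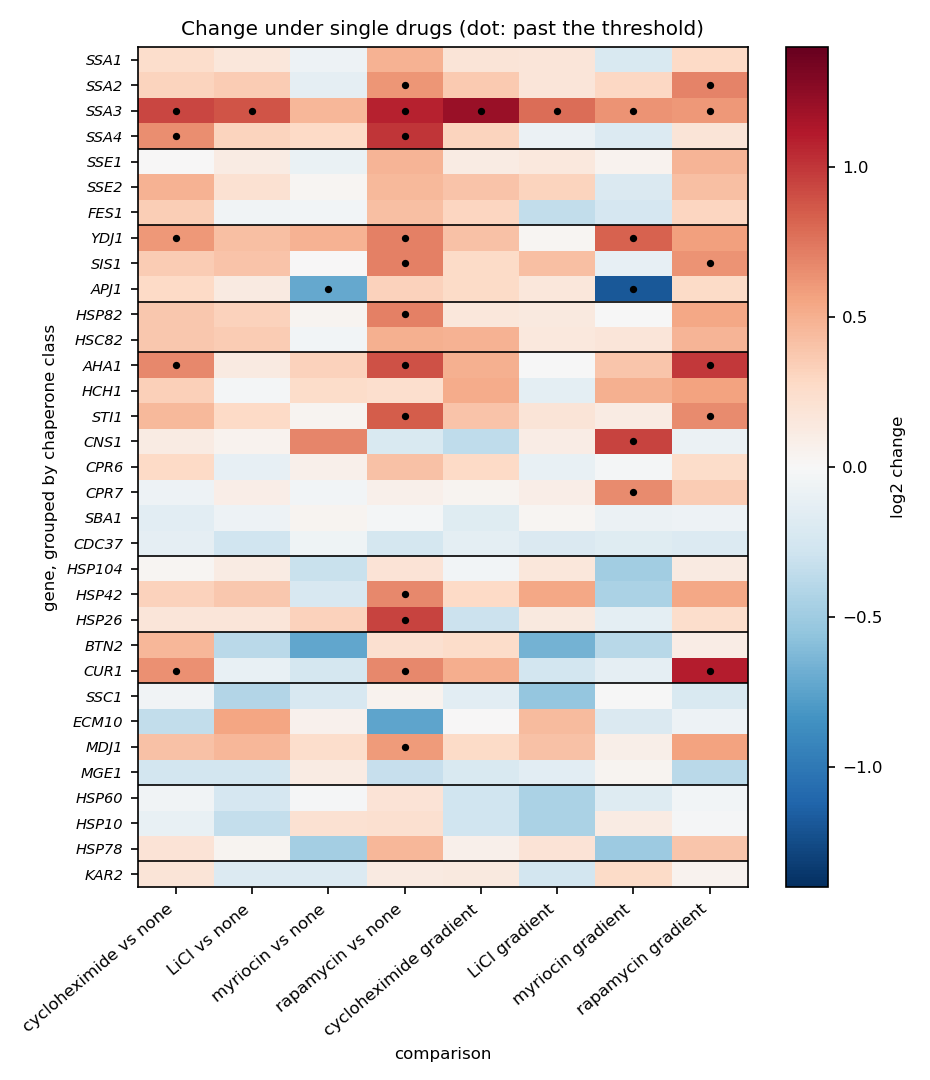
Change (log2 colour scale, red higher and blue lower) of the 33 genes, in rows grouped by class, under each drug against no drug and along each drug's gradient, at 0.5 of the drug-free growth; a dot marks a change past the threshold. Rapamycin has 12 dots against no drug, and SSA3 has a dot in 7 of the 8 columns.

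Near arrest, the myriocin wells were set against 4 matched myriocin wells of the same experiment and set. YDJ1 was 206, 211, 214, 246 and 284 near arrest and 99.2, 99.4, 134 and 182.7 at matched growth. The groups did not overlap, and YDJ1 was higher by 0.88 ± 0.18 (adjusted p = 0.0051). HSP26 was 360, 400, 430, 507 and 613 against 650, 662, 785 and 858, lower in every near-arrest well (-0.69 ± 0.13, 0.0047). Those 4 matched wells were above the drug-free range of HSP26 (278 to 642), and every near-arrest well was within it. HSP104 was 534, 547, 580, 728 and 858 against 895, 1025, 1057 and 1084, also without overlap (-0.66 ± 0.12, 0.0035). HSP78 had -0.62 ± 0.16 (0.022), with ranges that overlapped, and this call was lost without near-arrest well 2 or 3 and without matched well 5 or 6. In all, 1 rose and 3 fell, against 5.16% and 4.79% of all genes. Leaving out near-arrest well 5 gave 7 calls in place of 4. Near-arrest well 1 was a shallow library.

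Against no drug, the members that rose numbered 1 with cycloheximide and LiCl (SSA3), 4 with cycloheximide and myriocin and 5 with cycloheximide and rapamycin. They numbered 4 with LiCl and myriocin, 9 with LiCl and rapamycin and 6 with myriocin and rapamycin, and 0 fell in any mixture. The shares of all genes that rose were 3.93%, 4.95%, 4.05%, 6.90%, 3.97% and 2.15% in that order, and 3.03%, 4.65%, 3.15%, 5.94%, 2.63% and 2.25% fell. The share of members that rose with cycloheximide and LiCl is thus below that of all genes. With so few of all genes falling, the 0 falls among the members say little. All mixtures lay in the higher set, while the drug-free wells of the cycloheximide-myriocin, LiCl-myriocin and myriocin-rapamycin grids lay in the lower set. In the cycloheximide-myriocin grid the single-drug wells did too. Mixture and set are told apart there only through a set term shared by all grids. No alternative was run for the mixtures against no drug. SSA3 rose in all 6 mixtures, from 0.66 ± 0.23 (cycloheximide with rapamycin) to 1.41 ± 0.25 (myriocin with rapamycin). SSA4 rose in 4, by 1.11 ± 0.28 with cycloheximide and myriocin, 0.75 ± 0.23 with LiCl and myriocin, 1.00 ± 0.23 with LiCl and rapamycin and 1.44 ± 0.25 with myriocin and rapamycin. YDJ1 rose with cycloheximide and myriocin (0.79 ± 0.15), cycloheximide and rapamycin (0.84 ± 0.12), LiCl and myriocin (0.66 ± 0.12) and myriocin and rapamycin (0.72 ± 0.13). AHA1 rose with cycloheximide and myriocin (0.69 ± 0.17), cycloheximide and rapamycin (0.85 ± 0.14) and myriocin and rapamycin (0.81 ± 0.16).

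The remaining rises in mixtures each belonged to 1 or 2 pairs. With cycloheximide and rapamycin they were HSC82 (0.76 ± 0.10) and CUR1 (0.72 ± 0.23), and with LiCl and myriocin CNS1 (1.02 ± 0.24). With LiCl and rapamycin they were CUR1 (0.79 ± 0.22), HSP26 (0.77 ± 0.18), STI1 (0.69 ± 0.13), SIS1 (0.67 ± 0.10), HSP42 (0.67 ± 0.14), HSP82 (0.60 ± 0.13) and MDJ1 (0.59 ± 0.14). With myriocin and rapamycin they were HSP26 (1.03 ± 0.20) and STI1 (0.72 ± 0.14).

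Set against the midpoint of their single drugs, the mixtures differed for 3 member and pair combinations. With cycloheximide and rapamycin, CNS1 was higher (0.60 ± 0.18, adjusted p = 0.022) and HSP26 lower (-0.64 ± 0.14, 0.00090), where 1.14% of all genes were higher and 0.459% lower. With LiCl and myriocin CNS1 was higher (0.65 ± 0.18, 0.014; all genes 1.56% higher and 0.937% lower). The CNS1 calls were lost in 5 and 3 alternatives respectively, and without the experiment term the second was -0.01. The HSP26 call was lost in 3 of 10, without the set term, without the experiment term and in its own experiment alone. In the other 4 pairs 0 members passed in limma. Of all genes, 0.179% were higher and 0.0399% lower with cycloheximide and LiCl, 0.738% and 0.459% with cycloheximide and myriocin, 0.319% and 0.0598% with LiCl and rapamycin, and 0.00% in both directions with myriocin and rapamycin. In those 4, in that order, 5, 5, 5 and 12 members had an unadjusted p under 0.05, beside 537, 849, 818 and 290 of all 5015 genes. With myriocin and rapamycin, SSA4 had 0.80 ± 0.20 with an adjusted p of 0.32. No member was beyond both of its single drugs in any pair, where the pair with the most such genes, LiCl with myriocin, had 0.199% of all genes above and 0.120% below.

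Within a pair, the level was followed along the dose share, the dose of the second drug scaled to its own matched dose and divided by the sum for both drugs. Changes are given from share 0 to 1. Most members followed it in myriocin with rapamycin, where 25 of 33 rose and 1 fell as rapamycin replaced myriocin (all genes 9.01% and 9.81%), with a median of 1.11 against -0.04 for all genes. SSA4 was 141 ± 43.96 (SD, n = 5) at shares of 0.145 to 0.318, 367 ± 92.7 (n = 6) at 0.406 to 0.653 and 361 ± 87.5 (n = 5) at 0.708 to 0.870. Its slope was 2.30 ± 0.37 (adjusted p = 3.1e-05), though the middle and high wells did not differ beyond their spread. BTN2 was 59.7 ± 26.02, 135 ± 41.3 and 137 ± 27.6 (2.20 ± 0.36). SSA3 was 32.7 ± 14.8, 74.6 ± 10.9 and 80.4 ± 27.9 (2.16 ± 0.39).

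The Hsp90 genes rose as well. HSP82 was 941 ± 187.8, 1406 ± 109 and 1635 ± 27.6 over the same wells, a slope of 1.37 ± 0.12 (adjusted p = 2.7e-09). AHA1 was 126 ± 31.6, 201 ± 28.6 and 249 ± 35.8 (1.66 ± 0.20), STI1 181.9 ± 30.1, 328 ± 44 and 344 ± 28.6 (1.56 ± 0.20), and HSC82 had 1.13 ± 0.09. All 4 cytosolic Hsp70s, all 3 exchange factors, all 3 J-proteins, both Hsp90s, all 3 of the disaggregase class and both sorting factors rose. Of the co-chaperones AHA1, HCH1, STI1 and CPR6 rose, and CNS1 (-0.55 ± 0.33), CPR7, SBA1 and CDC37 did not pass. In the mitochondrion MDJ1, HSP10 and HSP78 (1.18 ± 0.11) rose, as did KAR2 of the endoplasmic reticulum (0.69 ± 0.16, adjusted p = 0.0016). MGE1 was 131 ± 7.51, 113 ± 11.03 and 96.2 ± 17.8 and was the gene that fell (-0.78 ± 0.17). Of the 14 genes with a run of at least 3 units in the promoter, such as those printed above, 13 rose, and of the 19 without one, 12 rose. The medians were 1.18 and 0.89. Against no drug, 5 of the 14 and 7 of the 19 rose with rapamycin (all genes 2.93%), and 1 and 4 with cycloheximide (1.46%). Along the shares, 4 and 8 fell as myriocin replaced LiCl (all genes 8.12%) and 4 and 7 as LiCl replaced cycloheximide (8.75%). As myriocin replaced cycloheximide, 4 and 2 fell (3.41%). How genes outside the list with such a run behaved was not assessed.

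Growth moved with the share in these wells, from 0.605 ± 0.0465 at low shares to 0.510 ± 0.0874 and 0.455 ± 0.0405. With relative growth as a covariate 11 members were higher and 1, CNS1, was lower, and with growth and final OD600 together 16 were higher and 0 lower. The counts of all genes in these fits are not given here, so whether the members stood out in them was not assessed. HSP82 (1.18), HSP78 (1.28), HSC82 (0.80), SSA2 (0.92), SIS1 (0.81), STI1 (1.24) and SSA4 (1.62) kept the call with growth in the fit, while BTN2 (0.88, adjusted p = 0.21), CUR1 (1.07, 0.12) and SSA3 (1.49, 0.092) lost it. YDJ1 went to -0.17. MGE1 (-0.55, adjusted p = 0.17) lost its call with growth in the fit and with growth and OD600 together, and KAR2 lost its call with either or both.

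**Figure D4:**
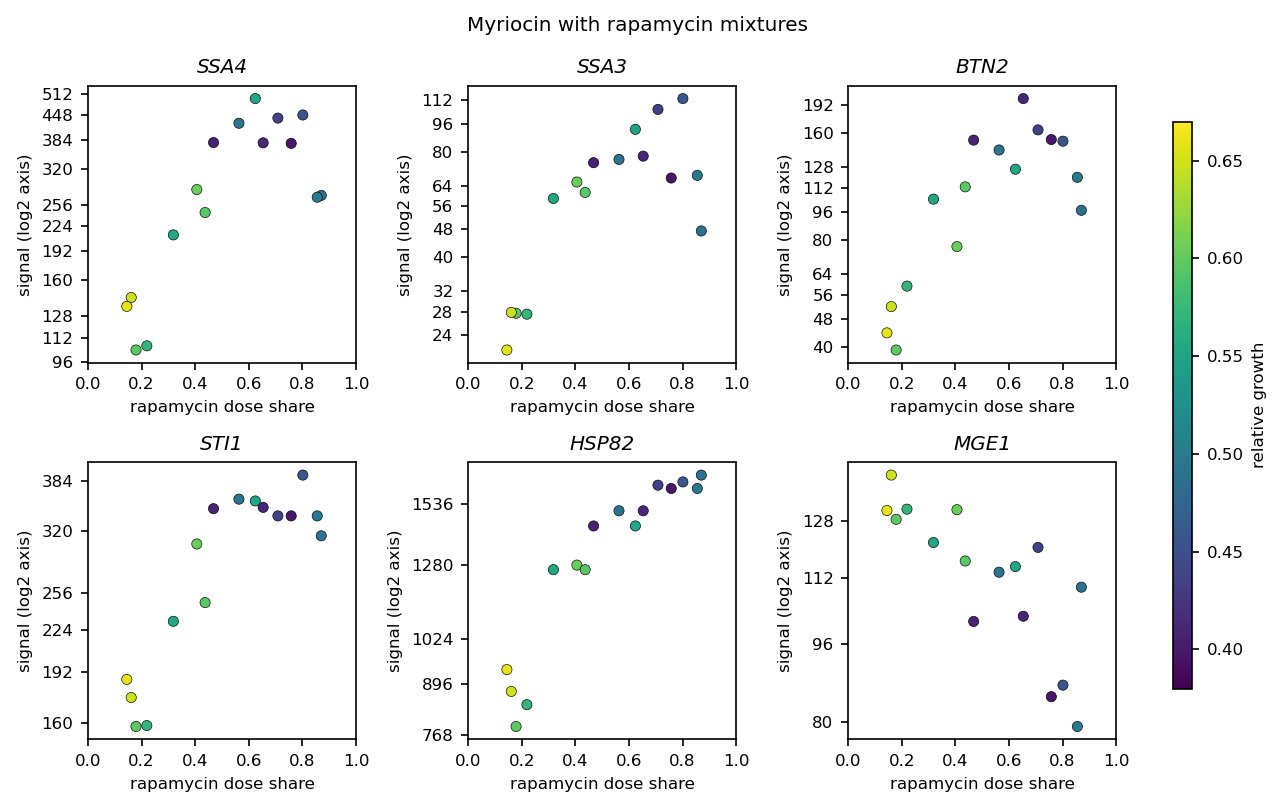
Level (normalised signal, log2 axis) of 6 genes against the rapamycin dose share in the 16 myriocin with rapamycin wells, coloured by relative growth; a point is a well. SSA4, SSA3 and BTN2 level off in the middle shares, HSP82 goes on rising and MGE1 falls, and the slower wells lie at the higher shares.

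As LiCl replaced cycloheximide, 0 rose and 11 fell (all genes 8.45% and 8.75%). BTN2 fell from 67.6 ± 4.03 (n = 8) to 54.5 ± 17.8 (n = 7) and 31.8 ± 8.53 (n = 7), a slope of -1.92 ± 0.25 (adjusted p = 1.0e-07). AHA1 fell from 122 ± 10.8 to 110 ± 10.3 and 83.7 ± 3.88 (-0.97 ± 0.10, 1.9e-09). CUR1 (-1.16), SSA3 (-1.05), SSA4 (-1.01), FES1 (-0.96), HSP78 (-0.77), HSP26 (-0.74), APJ1 (-0.74), SSC1 (-0.68) and CPR6 (-0.66) also fell. HSP26, APJ1 and SSC1 lost their calls with growth and final OD600 in the fit, and APJ1 lost its call in 4 of 9 alternatives. As myriocin replaced LiCl, 0 rose and 12 fell (all genes 8.37% and 8.12%). SSA4 fell from 324 ± 31.9 (n = 4) and 336 ± 45.6 (n = 8) to 197.007 ± 62.6 (n = 14), a slope of -1.81 ± 0.28. HSP42 fell from 860 ± 24.2 to 713 ± 84.7 and 526.5 ± 105 (-1.44 ± 0.14, adjusted p = 1.3e-09). SSA3 (-1.90), APJ1 (-1.48), CUR1 (-1.27), BTN2 (-1.26), HSP82 (-0.91), HSP26 (-0.86), SIS1 (-0.84), MDJ1 (-0.81), STI1 (-0.81) and CPR6 (-0.65) also fell. Final OD600 in these wells was 0.612 ± 0.0652 at low shares of myriocin, 0.641 ± 0.0716 at middle and 0.525 ± 0.0358 at high shares. With growth and OD600 in the fit, SSA4, APJ1, HSP26, STI1 and CPR6 lost their calls. CPR6 lost its call in 4 of 9 alternatives.

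As myriocin replaced cycloheximide, 0 rose and 6 fell (all genes 3.29% and 3.41%): CUR1 (-1.39 ± 0.39), HSC82 (-0.83 ± 0.12), HSP78 (-0.80 ± 0.16), FES1 (-0.79 ± 0.25), AHA1 (-0.78 ± 0.21) and SSA2 (-0.76 ± 0.10). Leaving out the wells of the lowest and highest share left 3. Final OD600 went from 0.6765 ± 0.0412 at low shares of myriocin to 0.579 ± 0.0798 at high shares. CUR1 and HSC82 lost their calls with growth and OD600 in the fit. As rapamycin replaced cycloheximide, 2 rose and 3 fell (all genes 9.23% and 9.99%). HSP26 rose from 381 ± 16.2 (n = 6) to 461 ± 33.5 (n = 7) and 630 ± 127 (n = 6), a slope of 1.23 ± 0.15, and SSE1 from 542 ± 19.7 to 593 ± 44.6 and 747 ± 37.5 (0.82 ± 0.09). ECM10 (-1.37 ± 0.39), SSA3 (-0.87 ± 0.25) and BTN2 (-0.74 ± 0.23) fell. As rapamycin replaced LiCl, 8 rose and 1 fell (all genes 9.99% and 8.75%). AHA1 rose from 148 ± 18.8 (n = 7) to 191.5 ± 16.01 (n = 7) and 224 ± 30.8 (n = 4), with a slope of 1.03 ± 0.19. KAR2 (0.93), HCH1 (0.93), SSE1 (0.81), HSP60 (0.79), HSP26 (0.75), CPR6 (0.69) and SSC1 (0.68) rose and BTN2 fell (-0.82). The HCH1 and BTN2 calls were each lost in 5 of 9 alternatives. Final OD600 moved with the share in both of these rapamycin pairs, from 0.681 ± 0.0309 to 0.502 ± 0.0261 with cycloheximide and from 0.695 ± 0.0449 to 0.569 ± 0.0793 with LiCl, and its part in the result was not tested beyond the covariate fit. With growth and OD600 in the fit, 1 member was called in each.

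**Figure D5:**
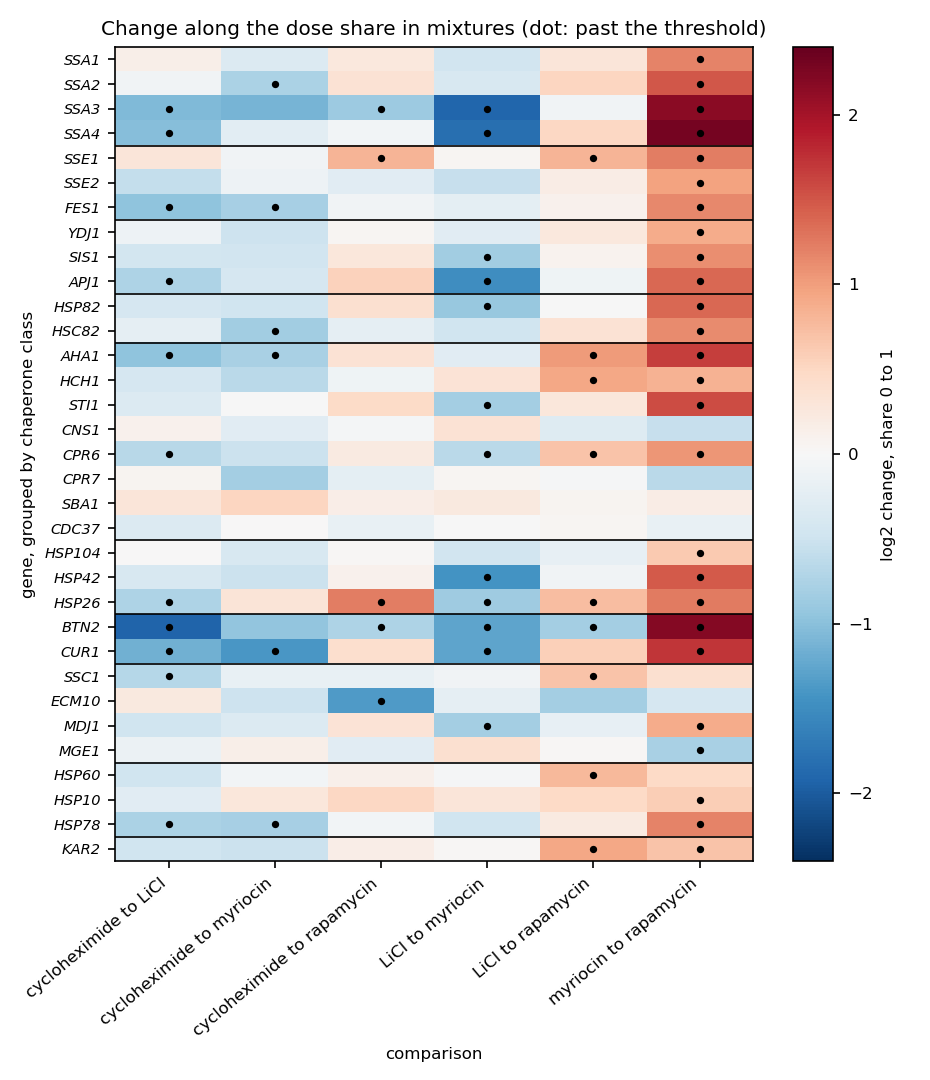
Change (log2 colour scale) from a dose share of 0 to 1 of the 33 genes, in rows grouped by class, in the 6 drug pairs (first drug to second); a dot marks a change past the threshold. The myriocin to rapamycin column has 25 dots for rising genes and 1 for MGE1, and the columns for cycloheximide to LiCl, cycloheximide to myriocin and LiCl to myriocin hold dots for falling genes alone.

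Of 5 regulators tested (HSF1, MSN4, YAP1, RPN4 and HAC1), RPN4, the proteasome regulator, rose with rapamycin, YAP1 with LiCl, and MSN4 fell with myriocin. HSF1 itself had 0.04 ± 0.15, 0.04 ± 0.15, -0.19 ± 0.15 and 0.03 ± 0.15 with cycloheximide, LiCl, myriocin and rapamycin. Along the myriocin to rapamycin share it rose by 0.70 ± 0.22 (adjusted p = 0.019). MSN2 and SKN7 were below the mean level tested. The counts of the lists below stand beside all-gene shares of 1.46% higher and 1.02% lower with cycloheximide, 4.41% and 4.13% with LiCl, 3.53% and 3.69% with myriocin, and 2.93% and 2.41% with rapamycin. Of 6 ribosome-bound chaperones, 8 subunits of the CCT chaperonin and 8 genes of mitochondrial proteostasis tested, 0 changed under any of the 4 drugs against no drug. Of 6 prefoldin subunits and 10 genes of folding in the endoplasmic reticulum, PFD1 and FPR2 rose with myriocin and no other was called under the 4 drugs. Of 17 general stress genes, 4 rose with cycloheximide, 6 with LiCl, 3 with myriocin and 1 with rapamycin, and 0 fell. HSP12, a membrane-protecting stress protein, had 1.04 ± 0.20, 1.12 ± 0.19, 0.79 ± 0.20 and, with rapamycin, 0.26 ± 0.19 (adjusted p = 0.43). Along the myriocin to rapamycin share HSP12 fell (-1.65 ± 0.35). The other general stress genes are not given here along this share, with which growth also moved. HSP26 and HSP104, named above as targets of Msn2 and Msn4 too, rose along it. The HSP26 call was lost with relative growth in the fit.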

How the data were processed

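Per the labels' protocols, RNA of each well was fragmented, selected for poly(A) and copied from barcoded poly(T) primers with unique molecular identifiers of 4 bases, and single-end reads of 50 bases were taken, so reads lie near the 3' end. TopHat, UMI-tools, featureCounts and build R64 appear in the submitters' processing notes. Versions, the strand setting and how multiply matching reads were handled are not given here. The values the authors deposited are a normalised signal, not counts. The largest value over the 238 libraries is 17026.2. Library totals run only from 595181 to 596851, near-equal totals of the kind that quantile normalisation leaves. A shift shared by most genes would therefore not show.

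Depth was estimated from the steps between distinct low values, taking the value 30 steps above the lowest as 30 reads. Values were taken as log2(value + 1), which understates the change of low genes. Models were fitted to the 5015 features with a mean of at least 10 with limma 3.58.1 (mean-variance trend) in R 4.3.3 and checked on simulated data. Comparisons with no drug, between drugs and with midpoints had terms for experiment and reference set, gradients a term for the set, the density comparison a term for dose, and dose-share and near-arrest fits none. A mixture is beyond both single drugs where both differences have 1 sign and the larger p passes. The fit of slopes by set tests an interaction. Promoters were read from the RefSeq genome and annotation R64, which named all 33 genes.

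The members and the other gene lists were chosen with earlier results of these data known. Members past the threshold are named, and other genes by list. Alternatives were a pseudocount of 10, no filter on low values, no fold minimum, omitted libraries or terms, added covariates, single sets and library weights. The 2 dose-share alternatives (growth with OD600, and omission of the end wells) and the block by rapamycin dose in the density comparison were chosen after seeing the data.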

Additional observations from a re-analysis of the deposited data

Results flagged for a closer look

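The slopes on growth inhibition differed between the lower and the higher growth-reference set for 4 genes with rapamycin and 2 with LiCl. Higher minus lower, they were -2.25 (BTN2), -1.62 (APJ1), -1.34 (SSA4) and -1.04 (FES1) with rapamycin, and -2.28 (BTN2) and -1.64 (FES1) with LiCl. Set and final OD600 moved together in these wells. Within the higher set final OD600 also fell with inhibition, so its slopes follow density as well as growth. With rapamycin it was 1.32 to 1.99 at a relative growth of at least 0.9 and at most 0.815 at matched growth. The part of set, density and inhibition was not tested.

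Of 132 combinations of a gene and a group of up to 10 wells, 8 had a well far from the others, where chance gives about 1 in 20. Cycloheximide well 1 was lowest for SSA2 (462, next 709) and HSP78 (206, next 285). Cycloheximide well 3, a shallow library, was lowest for FES1 (42.8, next 78.6) and ECM10 (1.18, next 7.40), and cycloheximide well 2 for HSP26 (217, next 374). LiCl well 10, also shallow, was lowest for CPR7 (3.13, next 10.7) and CDC37 (86.4, next 121). Mild myriocin well 6 was highest for MDJ1 (152, next 119).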

How the results depend on the processing

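All values here count members called, each against the count in the report, as higher plus lower where both occur. Apart from the fits with no fold minimum, the counts of all genes in these alternatives are not given here. With no fold minimum they were, against no drug, 9 (cycloheximide), 11 (LiCl, 7 + 4), 6 (myriocin, 3 + 3) and 19 (rapamycin, 18 + 1), beside 246, 902, 735 and 586 of the 5015 genes. Between drugs they were 4 (cycloheximide against LiCl), 9 (against myriocin) and 5 (against rapamycin), 9 (LiCl against myriocin), 17 (LiCl against rapamycin) and 24 (myriocin against rapamycin), beside 376, 269, 504, 1220, 998 and 1086 genes. Along gradients they were 16 (14 + 2), 6 (3 + 3), 14 (9 + 5) and 21 (18 + 3) in the drug order above, and 18 for density, beside 758, 634, 2186, 1404 and 629 genes, so the myriocin share is near that of all genes. For midpoints they were 5 (cycloheximide with rapamycin) and 3 (LiCl with myriocin), and for dose shares of cycloheximide with LiCl, myriocin and rapamycin 24 (2 + 22), 13 (1 + 12) and 11 (8 + 3), beside 460, 309, 1638, 436 and 1305 genes.

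With a pseudocount of 10, cycloheximide gave 3, myriocin 0, cycloheximide against LiCl 0, the myriocin gradient 3 (2 + 1), and the midpoints of cycloheximide with rapamycin and of LiCl with myriocin 1 (lower) and 0. Without shallow libraries, myriocin gave 2 (1 + 1), cycloheximide against LiCl 3, LiCl against rapamycin 9 (1 + 8) and the cycloheximide gradient 2. With library quality weights, myriocin gave 2 (1 + 1), cycloheximide against LiCl 4, cycloheximide against rapamycin 2 (1 + 1), LiCl against rapamycin 10 (1 + 9), the LiCl gradient 3 (1 + 2), and the midpoints of cycloheximide with rapamycin and of myriocin with rapamycin 1 (lower) and 2.

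Without the reference-set term, the midpoints of cycloheximide with myriocin, cycloheximide with rapamycin and myriocin with rapamycin gave 1, 0 and 1. Without the experiment term, cycloheximide gave 2, cycloheximide against LiCl 0, LiCl against myriocin 1 (HSP10, lower), and the midpoints of cycloheximide with LiCl, cycloheximide with rapamycin and LiCl with myriocin 5 (2 + 3), 0 and 3. The 1 call of myriocin became HSP26, higher. There CNS1 in LiCl with myriocin went to -0.010. With final OD600 in the fit, myriocin gave 4, all higher (SSA4, YDJ1, CNS1 and HSP26) where the report has APJ1 lower, LiCl against myriocin 1, the gradients 4, 4, 3 and 15, all higher, and the dose shares of cycloheximide with rapamycin and LiCl with rapamycin 2 (1 + 1) and 4. With relative growth in the fit, the midpoints of cycloheximide with LiCl and with rapamycin gave 1 each (HSP26, lower) and the myriocin with rapamycin share 12 (11 + 1), where YDJ1 went to -0.17.

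With drug-free wells under an OD600 of 0.9 only, myriocin gave 2 (1 + 1). The lower set alone gave 3 (LiCl gradient) and 16 (rapamycin gradient), all higher. The higher set alone gave 3 for cycloheximide (2 + 1) and 3 for LiCl, all lower (FES1, BTN2 and SSC1), with the SSA3 call lost. Wells with a relative growth of at least 0.35 gave 3 (myriocin gradient, 1 + 2). Own experiments alone gave midpoint counts of 1 (cycloheximide with myriocin), 1 (cycloheximide with rapamycin) and 0 (LiCl with myriocin). Of the alternatives chosen after seeing the data, growth with OD600 gave dose-share counts of 1 (cycloheximide with rapamycin), 1 (LiCl with rapamycin) and 16 (myriocin with rapamycin), and omission of the end wells gave 3 (cycloheximide with myriocin).

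Leaving out 1 well at a time gave 3 to 5 (cycloheximide), 1 to 1 (LiCl), 0 to 3 (myriocin), 10 to 12 (rapamycin), 3 to 7 (near arrest) and 5 to 6 (density). Cycloheximide fell to 3 without drug-free well 2, 7 or 10 or cycloheximide well 2. Myriocin gave 0 without drug-free well 4, 3 without drug-free well 10, and 2 without drug-free well 5, 8, 9 or 11 or myriocin well 1, 5 or 10. Near arrest gave 7 without near-arrest well 5. The cause of these shifts was not tested. No paired analysis by replicate number was possible because the labels give wells no shared numbers. The density wells do form 8 pairs of equal rapamycin dose, and with dose as a block, an alternative also chosen after seeing the data, the same 5 members were higher (SSA4, FES1, APJ1, HSP26 and BTN2) and 0 lower. Low members (ECM10, CPR7, CNS1, APJ1) are limited by depth in the 8 shallow libraries.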
